A study of Mus musculus with 36 samples.

Results

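The genes described are the adhesion G protein-coupled receptors, chosen as the protein-coding genes of the count table whose mouse symbol begins with Adgr. There were 27 such genes among the 52636 listed, in 8 subfamilies: 3 in ADGRA, 3 in ADGRB, 1 in ADGRD, 3 in ADGRE, 5 in ADGRF, 7 in ADGRG, 4 in ADGRL and 1 in ADGRV. The pseudogene Adgrd2-ps was left out. RNA came from FACS sorts of skeletal muscle (diaphragm, pectoralis, forelimb and hindlimb) of mice that all carried both an S100β-GFP transgene, which labels cells using the S100b promoter, and an NG2-dsRed transgene, which labels cells using the promoter of Cspg4. The sorts were S100β-GFP+;NG2-dsRed+ perisynaptic Schwann cells (PSCs, the glia that cover the neuromuscular junction), S100β-GFP+ cells and NG2-dsRed+ cells (3 sorts, called cell types here), and each library was made from a single mouse. The methods give juvenile mice of postnatal day 15 to 21. The upper age in the labels rises by 1 day from sample to sample, from day 21 up to day 46 where it stays, and this cannot be taken as a measured age. The table used here holds 9 libraries of PSCs, 8 of the S100β-GFP+ and 10 of the NG2-dsRed+ sort, of 12 labelled for each. The series' own design counts 7 for the S100β-GFP+ sort, so 1 of these 8 may be a library that was set aside there, and which one is not given. There was also no group without the transgenes.

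Adhesion G protein-coupled receptors have a long extracellular part with adhesion domains, which most members cut from their membrane part during synthesis by a self-cleaving domain, and can signal when the outer part binds matrix or a neighbouring cell. In Schwann cells the best known member is Adgrg6 (Gpr126), which raises cAMP and is needed for myelination of peripheral nerve. The latrophilins (part of ADGRL) bind teneurins and FLRT proteins across synapses, and the brain-specific angiogenesis inhibitors (BAI, ADGRB) act at synapses and in the uptake of dying cells. Members of ADGRE mark leukocytes, and Adgrl4 and Adgrf5 are known from blood vessel endothelium.

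The libraries held 5221655 to 9592875 counts on genes. Levels are CPM (counts per 1000000 of a library's TMM-normalised total), and between genes they are compared as CPM per kb of exon. Of the 27 members 18 had enough counts to be tested by edgeR's quasi-likelihood test with Benjamini-Hochberg adjustment over the 15330 genes kept, where a call is an adjusted p under 0.05. The sorts were checked against marker genes. Summed CPM of 8 Schwann cell lineage markers was 2779 to 3569 in PSC libraries, 657.1 to 2016 in S100β-GFP+ libraries and 85 to 453.3 in NG2-dsRed+ libraries, and Sox10 had a median of 466.7, 16.95 and 3.91 CPM. The S100β-GFP+ libraries also held 10290 to 22340 CPM on 6 fibroblast markers and 1270 to 11620 CPM on 11 macrophage and leukocyte markers. NG2-dsRed+ libraries held 7333 to 15920 CPM on 10 pericyte and smooth muscle markers and 2163 to 5240 CPM on 10 endothelial markers. In these bulk sorts, fewer cells of a type and less RNA per cell cannot be told apart. Some libraries stood apart. S100β-GFP+ libraries 14, 17 and 22 had 1141 to 3858 CPM on the endothelial markers against 153.6 to 260.4 in the other 5, and 12265 to 21390 genes at 1 to 9 counts against 6769 to 9314. PSC library 18 had 2825 such genes against 6451 to 7426 in the other PSC libraries. PSC library 31 had 4182 CPM on 5 tenocyte and chondrocyte markers, mostly Col2a1, against 1.91 to 41.2 in the other PSC libraries. Summed CPM of 4 melanocyte markers, mostly Dct, was 8.30 to 121.5 in PSC libraries and at most 4.94 in any other, while Mlana and Tyr had 1 count each in all PSC libraries. Values without S100β-GFP+ libraries 14, 17 and 22 or PSC libraries 18 and 31 stand beside some of the results that they move, and not beside all.

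Sequences upstream of the start were looked at because members of 1 subfamily differed in where they were expressed. RefSeq windows (GRCm38.p6) were at hand for 20 of the 27 members. Those of Adgrb2, Adgrb3 (both high in PSCs) and Adgrl4 (high in the NG2-dsRed+ sort) are shown as examples that contain no annotated exon. Windows of other members, Adgrf5, Adgrg2 and Adgrl1 among them, contain none either and are not shown. Each is 250 bases, 5′ to 3′ in the direction of the gene, ending just before the start. Capitals mark GGGCGG (an SP/KLF-type GC box) and CCGGAA (an ETS-type site), each on either strand.
Adgrb2, chr4:129984620-129984869, plus strand: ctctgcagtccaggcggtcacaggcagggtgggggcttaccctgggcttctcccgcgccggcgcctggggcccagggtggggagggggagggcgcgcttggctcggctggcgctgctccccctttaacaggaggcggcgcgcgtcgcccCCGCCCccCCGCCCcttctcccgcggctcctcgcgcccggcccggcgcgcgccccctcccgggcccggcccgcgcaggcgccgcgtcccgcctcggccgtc
Adgrb3, chr1:25829708-25829957, minus strand: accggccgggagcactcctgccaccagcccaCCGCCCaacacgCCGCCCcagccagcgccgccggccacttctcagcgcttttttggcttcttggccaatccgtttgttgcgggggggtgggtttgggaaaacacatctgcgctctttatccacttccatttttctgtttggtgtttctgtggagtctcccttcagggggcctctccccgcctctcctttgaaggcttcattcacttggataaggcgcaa
Adgrl4, chr3:151437632-151437881, plus strand: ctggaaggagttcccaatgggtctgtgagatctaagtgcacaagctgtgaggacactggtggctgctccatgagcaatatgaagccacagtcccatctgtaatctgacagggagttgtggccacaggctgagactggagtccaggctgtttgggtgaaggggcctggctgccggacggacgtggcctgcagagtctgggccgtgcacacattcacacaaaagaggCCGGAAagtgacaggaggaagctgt
The window of Adgrb2 held 35 CpG pairs and that of Adgrb3 14, against 5 in Adgrl4 and a median of 6 over the 32851 windows of the table. GGGCGG was found in 32.7% of those windows. It was present in 13 of the 24 windows of members, which belonged to 11 of the 20 members. Among these were Adgrb2, Adgrb3, Adgrg6 and Adgrl3, the members high in PSCs that have a window, and also Adgra3, Adgrg2 and Adgrl1, which were not higher there than in both other sorts. Adgrl1 was higher in the NG2-dsRed+ sort than in either other sort. So were Adgrf5 and Adgrg1, whose windows lacked GGGCGG, as did that of Adgrl4. CCGGAA was found in 12.0% of all windows and in those of Adgrl4, Adgra3 and Adgrl1 among members. ACAAAG, a SOX-type site, was in 16.5% of all windows and in none of those of the members high in PSCs, and TATAAA was in 12.4% of all windows and in 1 of the 3 of Adgrl3. These are matches of letters, not tests of binding.

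PSCs differed from either other sort in a mixed set of receptors. Adgrb1, Adgrb2, Adgrb3, Adgrg6 and Adgrl3 were higher in PSCs than in both, which is 5 of 18 members tested against 13.9% of all genes tested. Of the 18, 4 were lower in PSCs than in both, Adgrd1, Adgre5 and Adgrg2 among them, against 14.4% of all genes. In the single comparisons, 7 members were higher (22.9% of all genes) and 6 lower (24.1%) in PSCs than in the S100β-GFP+ sort, and 5 were higher (20.9%) and 8 lower (23.1%) in PSCs than in the NG2-dsRed+ sort. The median log2 fold change of the 18 members was 0.12 against the S100β-GFP+ sort and -0.92 against the NG2-dsRed+ sort, where all genes had 0.04 and 0.02. Both comparisons use the same PSC libraries. A gene that has enough counts only through the sort where it is high is bound to differ, so these counts describe the 18 members tested and not the family.

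**Figure D1:**
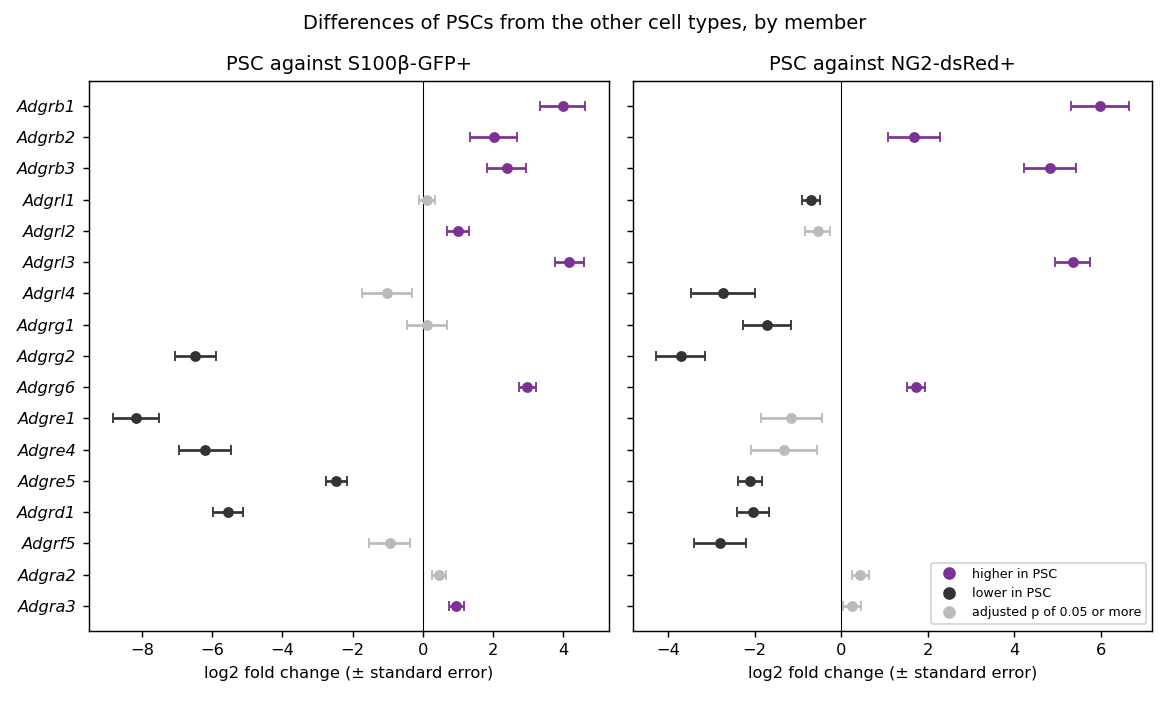
Log2 fold changes (x axis, with standard errors) of 17 members tested (y axis, grouped by subfamily) in PSCs against the S100β-GFP+ sort on the left and the NG2-dsRed+ sort on the right, by edgeR, with purple for members called higher, black for lower and grey for neither. The 3 ADGRB members lie to the right of 0 in both panels, between 1.68 and 5.97.

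Expressed per length, the members together came to 77.7 ± 21.8 CPM per kb in PSCs (SD, n = 9), 162.2 ± 41.6 in the S100β-GFP+ sort (SD, n = 8) and 209.6 ± 54.3 in the NG2-dsRed+ sort (SD, n = 10). In PSCs the leading subfamilies were ADGRL, with 33.7% ± 3.15 of the summed level (SD, n = 9), and ADGRG, with 25.2% ± 1.36. In the S100β-GFP+ sort ADGRE led with 49.0% ± 26.1 (SD, n = 8), from 12.3% to 76.0% between libraries. In the NG2-dsRed+ sort ADGRF (32.6% ± 3.04) and ADGRL (31.3% ± 3.14, SD, n = 10) were close to each other. The same subfamily stood for different genes: the ADGRL share was mostly Adgrl3, Adgrl4, Adgrl2 and Adgrl1 at 8.50, 7.75, 5.19 and 4.45 CPM per kb in PSCs, and mostly Adgrl4, at 51.3 CPM per kb, in the NG2-dsRed+ sort. ADGRB, although each of its members was higher in PSCs, was a small part there, 3.58% ± 1.81 (SD, n = 9), against 0.188% and 0.107% in the other sorts.

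**Figure D2:**
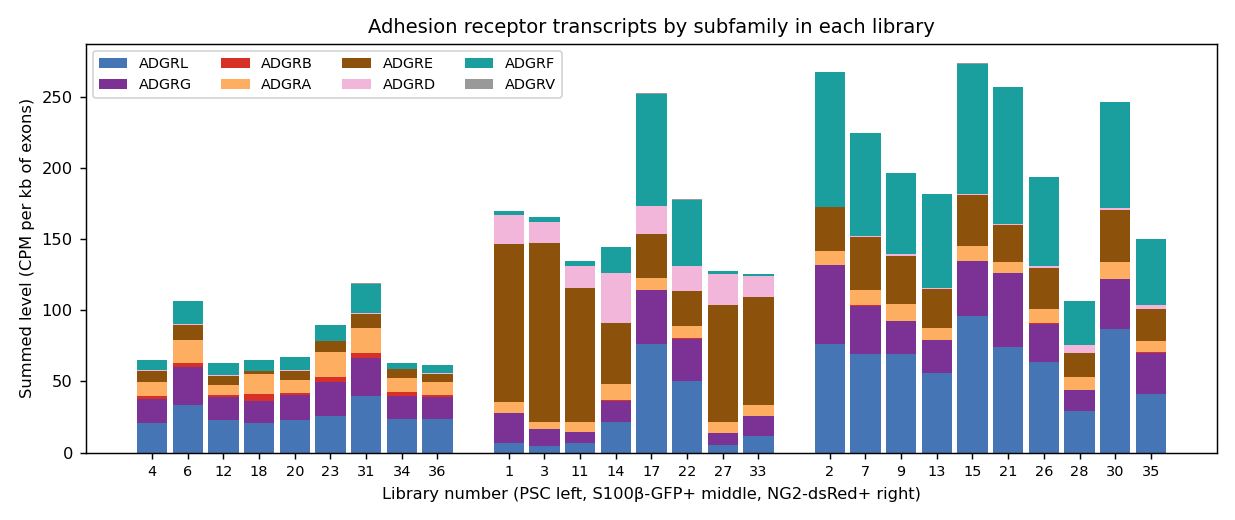
Summed level of the members of each subfamily (y axis, CPM per kb of exons) in each of the 27 libraries (x axis, library numbers by cell type), as stacked bars. PSC libraries reach 61.8 to 118.8 and NG2-dsRed+ libraries 106.5 to 273.4. ADGRE leads in all S100β-GFP+ libraries but 17 and 22, and libraries 14, 17 and 22 have more ADGRF and ADGRL than the other 5.

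Adgrg6, the receptor that drives myelination and binds collagen IV, laminin-211 and the prion protein, had the highest level per length of all members in PSCs (10.3 ± 3.40 CPM per kb, SD, n = 9), within the SD of Adgrf5, Adgrg1 and Adgrl3 at 9.97, 8.89 and 8.50. The gene (ENSMUSG00000039116) lies on chromosome 10, 14402583 to 14545659. In PSC libraries it ranged from 33.3 to 189.4 CPM with a median of 130.7, in S100β-GFP+ libraries from 9.83 to 24.9 with a median of 14.9, and in NG2-dsRed+ libraries from 26.6 to 48.0 with a median of 40.4. All PSC libraries lay above all S100β-GFP+ libraries, and all but library 18 lay above all NG2-dsRed+ libraries. The log2 fold change was 2.98 against the S100β-GFP+ sort (SE 0.24, edgeR adjusted p = 2.44e-11) and 1.72 against the NG2-dsRed+ sort (SE 0.21, adjusted p = 9.84e-08). Without PSC library 18 these were 3.16 and 1.92. Adgrg6 was also lower in S100β-GFP+ than in the NG2-dsRed+ sort, with a log2 fold change of -1.26 (adjusted p = 4.86e-05). Of its gene, 441 bases of exon lie opposite the antisense gene Gm46212, and the sources do not say whether reads were counted by strand.

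Adgrl3, the latrophilin that binds FLRT and teneurin proteins at synapses (ENSMUSG00000037605, chromosome 5, 81020138 to 81825133), had the largest smaller one of its log2 fold changes, 4.18, among these 5 genes. PSC libraries had 94.5 to 227.6 CPM with a median of 161.1, S100β-GFP+ libraries 1.24 to 22.0 with a median of 8.26, and NG2-dsRed+ libraries 1.58 to 6.31 with a median of 3.43. The lowest PSC library was thus above the highest of all others. PSCs were higher by 4.18 on the log2 scale than the S100β-GFP+ sort (SE 0.41, edgeR adjusted p = 1.03e-09) and by 5.34 than the NG2-dsRed+ sort (SE 0.40, adjusted p = 4.97e-12). An antisense gene, Gm16054, shares 1582 bases of exon positions with it. Within PSCs the level moved with the part of each library that fell on Gm15564, Gm23935 and Lars2. In the 4 libraries where these 3 genes took 27.7% to 36.6% of the counts Adgrl3 had 94.5 to 110.5 CPM, and in the other 5, with 3.64% to 17.8%, it had 161.1 to 227.6. Adgrb1, Adgra3, Adgrg1, Adgrl1 and Adgrl4 were divided without overlap too, with the higher levels in those 4 libraries, which makes 6 of the 18 members tested against 15.0% of all genes tested, on a division chosen after values were seen. The melanocyte markers were divided in the same way as Adgrl3, at 8.30 to 31.5 CPM in the 4 libraries and 79.4 to 121.5 in the other 5, and the part of these measures in the levels was not tested. With this share as a term in the fit the log2 fold changes of Adgrl3 were 3.70 and 4.97, both past the threshold.

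The other ADGRL members did not share the pattern of Adgrl3. Adgrl2, also a teneurin and FLRT receptor, had 55.0 to 97.7 CPM in PSCs (median 72.4), 10.9 to 97.2 in the S100β-GFP+ sort (median 28.3) and 58.4 to 147.0 in the NG2-dsRed+ sort (median 113.9). It was higher in PSCs than in the S100β-GFP+ sort, by 1.00 on the log2 scale (SE 0.31, edgeR adjusted p = 0.00815), and by 1.90 without S100β-GFP+ libraries 14, 17 and 22, which had 40.2 to 97.2 CPM against 10.9 to 34.4 in the other 5. Its difference from the NG2-dsRed+ sort was -0.54 (adjusted p = 0.131), and was past the threshold in 3 alternative fits, at -0.50 without these libraries, -0.49 with only the compared sorts and -0.65 with limma-voom. Adgrl1, the latrophilin that binds the toxin of black widow venom, ranged from 20.7 to 57.3 CPM in PSCs, 16.9 to 66.4 in the S100β-GFP+ sort and 46.2 to 74.5 in the NG2-dsRed+ sort, with medians of 39.2, 32.6 and 66.4. The highest median was in the NG2-dsRed+ sort, and the ranges overlapped. Adgrl1 was lower in PSCs than in the NG2-dsRed+ sort, with a log2 fold change of -0.69 (adjusted p = 0.00914), and its difference from the S100β-GFP+ sort was 0.12 (adjusted p = 0.688). Its exons share 1107 bases with Gm10644 on the opposite strand. Adgrl4 (Eltd1) is an endothelial receptor of vessel growth. Its PSC libraries had 14.0 to 99.0 CPM with a median of 21.1, and its NG2-dsRed+ libraries 89.1 to 355.3 with a median of 236.7. The S100β-GFP+ values were split, with 66.2, 298.9 and 187.6 CPM in libraries 14, 17 and 22 and 0.222 to 8.75 in the other 5. Against the NG2-dsRed+ sort the log2 fold change of the S100β-GFP+ sort was -1.71 (adjusted p = 0.0736), and -5.50 without these 3 libraries (adjusted p = 4.98e-08). PSCs were lower than the NG2-dsRed+ sort, with a log2 fold change of -2.73 (SE 0.73, adjusted p = 0.003).

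All 3 ADGRB (BAI) genes were higher in PSCs than in either other sort, at low levels. Adgrb1, whose product binds phosphatidylserine on dying cells and signals through ELMO and DOCK1, lies on chromosome 15, 74516195 to 74589465 (ENSMUSG00000034730). Its PSC libraries had 3.90 to 34.2 CPM with a median of 10.5, against at most 3.46 in S100β-GFP+ and 0.424 in NG2-dsRed+ libraries. No PSC library overlapped the others. The log2 fold changes were 3.99 (SE 0.64, edgeR adjusted p = 6.15e-06) and 5.97 (SE 0.67, adjusted p = 2.05e-08), and 3.67 and 5.68 without PSC library 18, which had the highest value. Without S100β-GFP+ libraries 14, 17 and 22 the difference from that sort was 5.19. Adgrb3, the receptor of C1q-like proteins at synapses (ENSMUSG00000033569, chromosome 1, 25067476 to 25829707), had 6.31 to 15.3 CPM in PSCs (median 8.77), 0.145 to 7.08 in the S100β-GFP+ sort (median 1.29) and at most 1.29 in the NG2-dsRed+ sort (median 0.229). Only S100β-GFP+ library 22, with 7.08, reached into the PSC range, and the next had 2.60. PSCs were higher by 2.39 (SE 0.55, adjusted p = 7e-04) and by 4.82 on the log2 scale (SE 0.59, adjusted p = 9.99e-08), and by 3.58 against the S100β-GFP+ sort without libraries 14, 17 and 22. Adgrb2 (BAI2, ENSMUSG00000028782, chromosome 4, 129984870 to 130022633), was the lowest, with 0 to 5.32 CPM in PSCs (median 3.05), 0.174 to 1.76 in the S100β-GFP+ sort (median 0.356) and 0 to 2.43 in the NG2-dsRed+ sort (median 0.699). Its groups overlapped, and the log2 fold changes of 2.03 and 1.68 had edgeR adjusted p = 0.0142 and 0.0249, from 227 counts in all PSC libraries together. Without S100β-GFP+ libraries 14, 17 and 22 the former was 3.39.

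**Figure D3:**
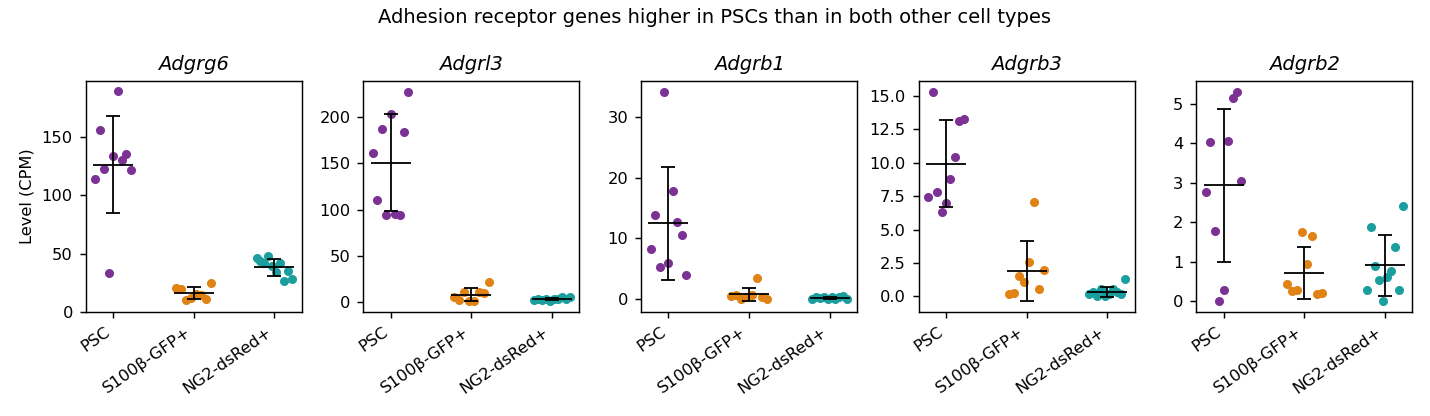
Level in CPM (y axis, its own scale in each panel) of the 5 members higher in PSCs than in either other sort, with a point for each of 9 PSC, 8 S100β-GFP+ and 10 NG2-dsRed+ libraries and a bar and whiskers for the mean and SD. Adgrl3 and Adgrb1 have no PSC point within the range of the others, while the Adgrb2 points overlap and PSC library 18 is the low point of Adgrg6 (33.3) and the high point of Adgrb1 (34.2).

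The remaining ADGRG genes went other ways than Adgrg6. Adgrg1 (Gpr56), which binds collagen III and acts in oligodendrocyte precursors and in cytotoxic lymphocytes, was highest in the NG2-dsRed+ sort, with 56.1 to 278.7 CPM (median 147.4). PSC libraries had 26.3 to 87.0 CPM with a median of 37.9, and S100β-GFP+ libraries 3.66 to 11.1 apart from 26.1, 167.2 and 128.0 in libraries 14, 17 and 22. PSCs were lower than the NG2-dsRed+ sort, with a log2 fold change of -1.71 (SE 0.56, edgeR adjusted p = 0.0133), a call lost with the Lars2, Gm15564 and Gm23935 share as a term (-1.25, adjusted p = 0.0702). Adgrg2 (Gpr64), known from the epididymis, had 11.0 to 39.9 CPM in the S100β-GFP+ sort (median 22.3), 0.876 to 7.30 in the NG2-dsRed+ sort (median 3.19) and at most 1.14 in PSCs, where 5 of the 9 libraries were at 0. The S100β-GFP+ libraries lay above all others. Its log2 fold changes in PSCs were -6.48 against the S100β-GFP+ sort (SE 0.59, adjusted p = 2.54e-10) and -3.71 against the NG2-dsRed+ sort (SE 0.56, adjusted p = 3.01e-06).

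Adgrg1 and Adgrg3 lie next to each other on the plus strand of chromosome 8, at 94974751 to 95014217 and 95017692 to 95045250. Their levels differed. Adgrg1 was highest in the NG2-dsRed+ sort, and Adgrg3 (Gpr97), known from granulocytes, stayed at or under 4.61 CPM in all libraries but 1. That library, PSC library 4, had 10.6 CPM from 135 of the 143 counts of the gene in PSCs, while the summed level of 4 granulocyte markers was 24.0 CPM in PSC library 36 and at most 5.01 in the other PSC libraries, with 0.236 in library 4. On chromosome 17 the ADGRF genes Adgrf1, Adgrf2, Adgrf4 and Adgrf5 lie between 42656891 and 43459557, and only Adgrf5 passed the filter.

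Of the 18 members tested 5 were higher in the S100β-GFP+ sort than in either other sort, Adgrd1, Adgre1, Adgre4 and Adgrg2 among them, against 11.8% of all genes. Against the NG2-dsRed+ sort alone, 8 members were higher in the S100β-GFP+ sort (18.1% of all genes) and 6 lower (15.2%). Adgre1 encodes F4/80, the classical surface marker of mouse macrophages (ENSMUSG00000004730, chromosome 17, 57358691 to 57483527). S100β-GFP+ libraries had 20.9 to 175.1 CPM with a median of 117.0, PSC libraries at most 1.43 and NG2-dsRed+ libraries at most 2.89. The log2 fold change in PSCs was -8.18 against the S100β-GFP+ sort (SE 0.66, edgeR adjusted p = 1.9e-11) and -1.15 against the NG2-dsRed+ sort (adjusted p = 0.193). Adgre4, another receptor of myeloid cells, had 5.27 to 23.2 CPM in the S100β-GFP+ sort (median 11.9) and at most 0.669 in PSCs and 1.13 in the NG2-dsRed+ sort. PSCs were lower than the S100β-GFP+ sort, with a log2 fold change of -6.20 (SE 0.74, adjusted p = 4.22e-08), and the difference from the NG2-dsRed+ sort was -1.32 (adjusted p = 0.163). Adgre5 encodes CD97, a receptor of leukocytes and other cells that binds CD55 and THY1. It was the highest member per length in the S100β-GFP+ sort, at 37.4 ± 18.8 CPM per kb (SD, n = 8), and was high in the NG2-dsRed+ sort too, at 29.2 ± 6.61 (SD, n = 10). By library it had 62.5 to 255.9 CPM in the S100β-GFP+ sort (median 147.2), 60.8 to 135.5 in the NG2-dsRed+ sort (median 110.9) and 6.13 to 40.0 in PSCs (median 24.1). PSCs lay below all other libraries, with log2 fold changes of -2.46 (SE 0.29, adjusted p = 3.83e-08) and -2.11 (SE 0.28, adjusted p = 3.59e-07), and 895 bases of its exons lie opposite Ddx39.

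All 11 macrophage and leukocyte markers were higher in the S100β-GFP+ sort than in either other sort, and their summed level was 36.0 to 571.5 CPM in PSCs and 15.6 to 75.8 in the NG2-dsRed+ sort. In PSCs this sum, with a mean of 178.2 CPM, was mostly Lyz2, with a mean of 170 CPM. Lyz2 was the only marker higher in PSCs than in the NG2-dsRed+ sort, while 5 were lower and 5 not past the threshold. Fcgr1 had no count in PSCs. Within the S100β-GFP+ libraries, libraries 14, 17 and 22 were the lowest in Adgre1 (68.5, 39.5 and 20.9 CPM against 101.9 to 175.1), in Adgre4 (5.27 to 7.94 against 10.6 to 23.2) and in Adgre5 (62.5 to 72.9 against 141.8 to 255.9). They were also the lowest in the summed macrophage and leukocyte markers, at 1270 to 3898 CPM against 5861 to 11620. What part the marked cells had in these levels was not tested. Without libraries 14, 17 and 22 Adgre5 was higher in S100β-GFP+ than in the NG2-dsRed+ sort, by 0.74 on the log2 scale (adjusted p = 0.0245), against 0.36 (adjusted p = 0.346) with them.

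Adgrd1 (Gpr133), a receptor that signals through cAMP, followed a different order among these libraries (ENSMUSG00000044017, chromosome 5, 129096750 to 129204599). S100β-GFP+ libraries had 120.9 to 292.7 CPM with a median of 155.8, and the highest value was in library 14. NG2-dsRed+ libraries had 3.97 to 49.4 CPM (median 9.53) and PSC libraries 0.876 to 5.22 (median 3.63). S100β-GFP+ libraries lay above all others, and the log2 fold changes of PSCs were -5.55 against them (SE 0.43, edgeR adjusted p = 8.27e-12) and -2.04 against the NG2-dsRed+ sort (SE 0.37, adjusted p = 4.1e-05). The 2 highest NG2-dsRed+ libraries, 28 with 49.4 and 35 with 23.8 CPM, were also those with the highest summed fibroblast markers, at 12280 and 9061 CPM against 1705 to 7023. S100β-GFP+ library 14 had the highest fibroblast sum of its cell type, 22340 CPM. The part of fibroblasts in this was not tested.

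Adgrf5, Adgrg1 and Adgrl1 were higher in the NG2-dsRed+ sort than in either other sort, 3 of 18 members against 8.44% of all genes. There were 5, with Adgrl2 and Adgrl4, without S100β-GFP+ libraries 14, 17 and 22 or with limma-voom, where no share of all genes is at hand. Adgrf5 (Gpr116), a receptor of endothelium and of lung surfactant control, was the leading member per length there, at 68.9 ± 21.3 CPM per kb (SD, n = 10), followed by Adgrl4 at 51.3 ± 17.7. The gene (ENSMUSG00000056492) lies on chromosome 17, 43360451 to 43459557. NG2-dsRed+ libraries had 275.3 to 862.1 CPM with a median of 622.6, and PSC libraries 37.5 to 188.4 with a median of 74.4. S100β-GFP+ libraries 14, 17 and 22 had 162.5, 703.6 and 401.7 CPM and the other 5 had 11.3 to 34.1. PSCs were lower than the NG2-dsRed+ sort, with a log2 fold change of -2.79 (SE 0.60, edgeR adjusted p = 0.000356).

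Against the S100β-GFP+ sort the direction for Adgrf5 and Adgrl4, and the call for Adgrg1, depended on 3 libraries. With all of them, the log2 fold changes in PSCs were -0.94 for Adgrf5 (adjusted p = 0.198), -1.02 for Adgrl4 (adjusted p = 0.255) and 0.12 for Adgrg1 (adjusted p = 0.885). The method mattered too: limma-voom with all libraries gave 0.84, 1.31 and 1.77, and only Adgrg1 was past the threshold (limma-voom adjusted p = 0.00444). Without libraries 14, 17 and 22 the edgeR values were 2.05 (adjusted p = 3.41e-05), 2.80 (adjusted p = 0.000132) and 2.82 (adjusted p = 1e-06). Then 11 members in place of 7 were called higher in PSCs, Adgra2 being the other one added, with no share of all genes at hand for that fit. The endothelial marker sum moved in the same way, with 234.8 to 957.4 CPM in PSCs, 153.6 to 260.4 in the other 5 S100β-GFP+ libraries, and none of the 10 markers at 0 in any cell type. PSC library 31, with the highest endothelial sum of its cell type, also had the highest Adgrf5 (188.4 CPM), Adgrl4 (99.0) and Adgrg1 (87.0). Without it their log2 fold changes against the NG2-dsRed+ sort were -3.00, -3.09 and -1.86, all past the threshold. PSC library 18 had the lowest endothelial sum, 234.8 CPM, with 67.5 CPM of Adgrf5 and 68.0 of Adgrg1. What endothelial cells contributed was not tested.

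**Figure D4:**
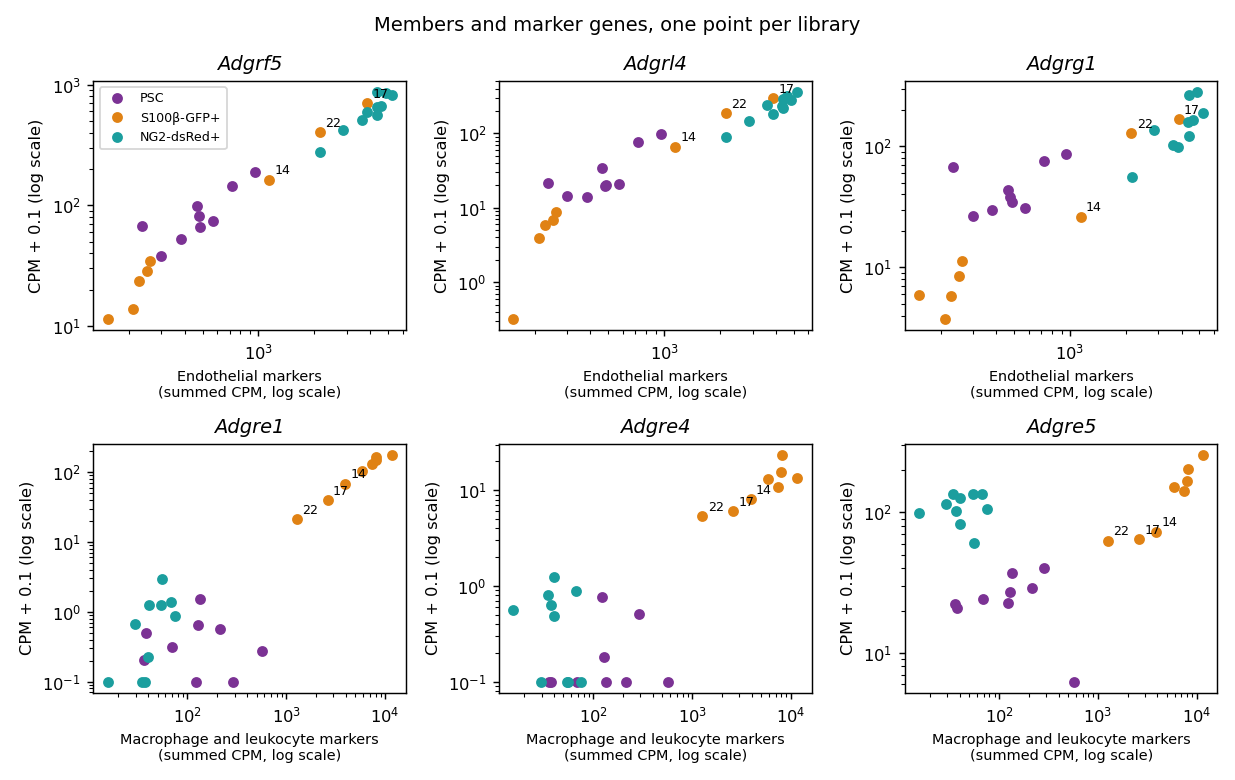
Level of 6 members (y axis, CPM plus 0.1, log scale) against the summed level of endothelial markers (top row) or macrophage and leukocyte markers (bottom row, x axes, CPM, log scale), with a point per library coloured by cell type and S100β-GFP+ libraries 14, 17 and 22 numbered. In the top row these 3 libraries lie near the NG2-dsRed+ points or, for library 14, next to the PSC points, and in the bottom row Adgre5 lies between 60.8 and 135.5 CPM in NG2-dsRed+ libraries that have at most 75.8 CPM of the macrophage and leukocyte markers.

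Of ADGRA, Adgra2 and Adgra3 had enough counts to be tested. Adgra2 (Gpr124), which with Reck conveys WNT7 signals in brain vessels, had 21.7 to 60.9 CPM in PSCs (median 31.2), 14.9 to 39.4 in the S100β-GFP+ sort (median 26.5) and 19.0 to 32.6 in the NG2-dsRed+ sort (median 27.0). The groups overlapped, and the differences of PSCs from the S100β-GFP+ and NG2-dsRed+ sorts were 0.45 and 0.44 on the log2 scale (edgeR adjusted p = 0.0689 and 0.0631), both past the threshold when PSC library 18 was left out (0.56 and 0.57). Adgra3 (Gpr125), a receptor linked to planar cell polarity, had 24.6 to 87.1 CPM in PSCs (median 37.1), 16.3 to 37.8 in the S100β-GFP+ sort (median 22.9) and 23.4 to 52.3 in the NG2-dsRed+ sort (median 41.5). It was higher in PSCs than in the S100β-GFP+ sort by 0.96 on the log2 scale (SE 0.22, adjusted p = 0.000717), and its difference from the NG2-dsRed+ sort was 0.24 (adjusted p = 0.364).

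The other 9 members, Adgra1, Adgrf1, Adgrf2, Adgrf3, Adgrf4, Adgrg3, Adgrg4, Adgrg7 and Adgrv1, did not pass the filter on low counts. Apart from Adgrg3 in PSC library 4 and Adgrv1 in the S100β-GFP+ sort (0.554 to 12.0 CPM), no library was above 4.61 CPM. Adgrf3 had no count in PSCs and Adgrg4 none in the NG2-dsRed+ sort. S100β-GFP+ library 22 had the highest level of that cell type in 8 of the 9, all but Adgrg7, and also in Adgrb1 and Adgrb3. It was the library with the most genes at 1 to 9 counts (21390).

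The Celsr genes belong to the same receptor family as ADGRC and set planar cell polarity. Celsr1 and Celsr2 were both higher in PSCs than in either other sort, and Celsr3 is listed at 0. Celsr1 had 0 to 29.1 CPM in PSCs (median 23.1), at most 5.76 in S100β-GFP+ and 2.28 in the NG2-dsRed+ sort, with log2 fold changes of 3.23 and 4.06 (edgeR adjusted p = 0.00012 and 3.06e-06). Celsr2 had 13.8 to 68.2 CPM in PSCs (median 25.8), at most 9.00 in S100β-GFP+ and 4.70 in the NG2-dsRed+ sort, with log2 fold changes of 2.73 and 3.89 (adjusted p = 1.31e-07 and 1.15e-10). All PSC libraries lay above all others for Celsr2.

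Partners of the latrophilins were mixed. Of 14 listed 11 were tested, with 4 higher and 3 lower in PSCs in each of the comparisons with the S100β-GFP+ and NG2-dsRed+ sorts, and median log2 fold changes of 0.12 and -0.17. For this list and those below, 22.9% of all genes tested were higher and 24.1% lower in PSCs than in the S100β-GFP+ sort. Against the NG2-dsRed+ sort these shares were 20.9% and 23.1%. Nrxn3, a neurexin, was higher in PSCs by 3.58 and 5.18 on the log2 scale (edgeR adjusted p = 7.5e-06 and 2.11e-08), and the teneurin Tenm3 by 2.72 and 2.70, with 23.5 to 148.8 CPM in PSCs. Flrt2, a ligand of Adgrl3, was lower in PSCs (log2 fold changes -3.73 and -2.06), at 0.350 to 10.6 CPM against 51.0 to 111.7 in the S100β-GFP+ sort. Another FLRT gene, Flrt3, had a mean of 79.7 CPM in PSCs. It was higher there than in the NG2-dsRed+ sort by 4.85 (adjusted p = 1.01e-12). Its difference from the S100β-GFP+ sort was -0.43 (adjusted p = 0.235).

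Partners of the BAI receptors were few and also went both ways. Of 11 listed 6 were tested, with 2 higher and 4 lower in PSCs than in the S100β-GFP+ sort and 2 higher and 3 lower than in the NG2-dsRed+ sort, and median log2 fold changes of -0.87 and -0.66. C1ql1, a C1q-like ligand of Adgrb3, had 17.3 to 49.2 CPM in PSCs and less than 1 CPM in all other libraries. Its log2 fold changes were 7.10 and 7.20 (edgeR adjusted p = 2.45e-11 and 2.64e-12). Dock1, an exchange factor for RAC1 in engulfment, was higher by 1.22 and 0.83, while its partner Elmo1 was lower (-1.46 and -1.29). Rtn4rl1, a Nogo receptor homolog, was lower (-3.68 and -4.28).

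Among 8 ligands and Schwann cell effectors of Adgrg6, 4 were higher and 2 lower in PSCs than in the S100β-GFP+ sort and 2 were higher and 4 lower than in the NG2-dsRed+ sort, with medians of 0.72 and -0.46. Prnp, the gene of the prion protein, had 505.9 to 1261 CPM in PSCs and at most 208.6 elsewhere, and was higher by 2.33 and 2.75 on the log2 scale (edgeR adjusted p = 1.76e-10 and 1.81e-12). Pou3f1 (Oct6), a transcription factor of promyelinating Schwann cells, was higher by 4.79 and 6.88, with 570.4 to 3179 CPM in PSCs. Lama2 and Lamb1, chains of laminin-211, were lower in PSCs, with log2 fold changes of -1.92 and -0.97 against the S100β-GFP+ sort and of -2.29 and -1.28 against the NG2-dsRed+ sort. Lamc1, also listed, was not past the threshold in either comparison (0.37 and 0.18). The collagen IV genes Col4a1 and Col4a2 were higher in PSCs than in the S100β-GFP+ sort (1.07 and 1.30). They were lower than in the NG2-dsRed+ sort (-1.35 and -1.09).

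Of 9 other ligands and partners 7 were tested, with none higher and 4 lower in PSCs than in the S100β-GFP+ sort and 2 higher and 5 lower than in the NG2-dsRed+ sort, with medians of -1.74 and -2.58. Cd55 and Thy1, ligands of Adgre5, were lower in PSCs, with log2 fold changes of -6.58 and -4.43 against the S100β-GFP+ sort and of -2.73 and -3.56 against the NG2-dsRed+ sort. Col3a1, a ligand of Adgrg1, was lower (-4.60 and -2.58), and Plxdc2, a partner of Adgrd1, too (-1.74 and -1.30). Of the 9 G protein alpha subunits 2 were higher and 3 lower in PSCs than in the S100β-GFP+ sort and 1 higher and 5 lower than in the NG2-dsRed+ sort, with medians of -0.02 and -0.56. Gnaq was higher by 0.63 and 0.58, Gnai2 lower (-0.78 and -1.07), and Gnai3 lower (-0.63 and -0.56).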

How the data were processed

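RNA was measured by RNA-seq in sorted cells after SMART-Seq v4 amplification. The deposited values are whole-number counts per gene without normalization, which the authors obtained from trimmed reads with HISAT2 (alignment) and HTSeq (counting). Per the labels the build is GRCm38. The sources used here give no version of these tools and do not say if strand was used, so overlapping and antisense genes cannot be told apart. Of 36 labelled libraries 27 have a column, and the other 9 were not analysed here. Symbols, positions and merged exon lengths came from GENCODE M21, which holds 99.72% of the identifiers.

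In R 4.3.3, edgeR 4.0.16 fitted the 27 libraries together (TMM, filterByExpr with minimum count 10, quasi-likelihood test, Benjamini-Hochberg at 0.05). SE is that of the log2 fold change. CPM use TMM totals, and PCR copies cannot be told from molecules. No library pair of a cell type looked like a duplicate (chi-square per degree of freedom at least 8.11, 109 pairs). Tested on simulated counts over 14986 genes, the fit recovered 39.3% of 2-fold and 84.1% of 4-fold changes for PSC against S100β-GFP+ libraries, and 36.9% and 86.7% against NG2-dsRed+ libraries.

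The members and the lists of partners and markers were chosen with earlier results of these data known. Members are described singly if past the threshold against both others, or among the 10 highest per length in a cell type, which took in all 18 tested, 1 of which is not reported here, nor is 1 listed partner. Genes of a list are named if past the threshold in PSCs against both others in 1 direction, at most 4 per list by the smaller log2 fold change, beside the Celsr genes. Flrt3, Lamc1, Col4a1 and Col4a2 are given in addition, as related genes of the same lists. Motifs, libraries and the split of PSC libraries by the share of Lars2, Gm15564 and Gm23935 were picked after values were seen. The alternatives were DESeq2 1.42.0, its size factors in edgeR, no filter, only the compared cell types, limma-voom (limma 3.58.1) with quality weights, that share as a term, leaving out S100β-GFP+ libraries 14, 17 and 22, and leaving out each library.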

Additional observations from a re-analysis of the deposited data

Results flagged for a closer look

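Libraries were flagged by the gap to the nearest other value over the range (Dixon's rule). That rule flags about 1 in 20 groups where values are normally distributed. Levels from few counts are not, so the number flagged cannot be read as an excess over chance. A library far from the others of its cell type was found in 19 of the 66 groups of a member and a cell type that had at least 10 counts. S100β-GFP+ library 22 was the highest in 9 of them: Adgrb1 at 3.46 CPM, Adgrb3 at 7.08, Adgrf1 at 1.32, Adgrf2 at 2.14, Adgrf3 at 2.30, Adgrf4 at 1.65, Adgrg3 at 4.61, Adgrg4 at 1.65 and Adgrv1 at 12.0. This library also had the most genes at 1 to 9 counts, 21390, and what part that had was not tested. Without libraries 14, 17 and 22 the higher level of Adgrb1 and Adgrb3 in the S100β-GFP+ than in the NG2-dsRed+ sort was not past the threshold (log2 0.79 and 1.27).

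PSC library 18 was the lowest for Adgrg6 at 33.3 CPM, against 114.0 for the next, and the highest for Adgrb1 at 34.2 CPM, against 17.8. PSC library 4 had 10.6 CPM of Adgrg3, against 0.834 for the next, and PSC library 31 had 1.43 CPM of Adgre1. S100β-GFP+ library 14 was the highest for Adgrd1 at 292.7 CPM. Among NG2-dsRed+ libraries, 28 stood out for Adgrd1 (49.4 CPM) and Adgre1 (2.89 CPM), 35 for Adgrb3 (1.29 CPM), 30 for Adgrg3 (4.38 CPM) and 15 for Adgrv1 (2.98 CPM).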

How the results depend on the processing

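The 5 genes called higher in PSCs than in either other sort, Adgrb1, Adgrb2, Adgrb3, Adgrg6 and Adgrl3, were called so in each of the 34 alternative fits. Of 37 calls in single comparisons of members 33 were kept wherever the gene was tested. Without a filter on low counts 11 members in place of 6 were lower in PSCs than in the S100β-GFP+ sort, as more genes were tested. Without S100β-GFP+ libraries 14, 17 and 22, 11 members in place of 7 were higher. The share of all genes called is at hand for the main fit only, so changes in these counts cannot be set against it. The difference of PSCs from the S100β-GFP+ sort turned positive for Adgrf5 (log2 2.05 without these 3 libraries, 0.84 with limma-voom) and for Adgrl4 (2.80, 1.31 with limma-voom and 0.01 with the share of counts on 3 genes as a term), and Adgrg1 lay between -0.06 and 0.84 with a library left out. Adgra3 in PSCs against the NG2-dsRed+ sort was -0.12 with limma-voom and 0.52 with that share as a term, which made 7 members with Adgra2 and Adgra3 higher than in both others in place of 5, and Adgra2, at -0.01 between the S100β-GFP+ and NG2-dsRed+ sorts, was 0.05 with DESeq2, 0.05 with its size factors and 0.00 with only these sorts fitted (-0.12 to 0.07 with a library left out). The cause was not tested in these cases.

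The calls lost were Adgrg1 against the NG2-dsRed+ sort (-1.25 with the share as a term) and, higher in the S100β-GFP+ than in the NG2-dsRed+ sort, Adgrb1 (0.79 without libraries 14, 17 and 22, 0.98 without library 22, 1.82 to 1.93 without NG2-dsRed+ library 2, 9, 15 or 26, and 1.03 with limma-voom), Adgrb3 (1.27 without the 3) and Adgrl3 (0.87 with limma-voom, 0.80 without library 33). Calls gained with a library left out were Adgra2 in PSCs against both others (0.51 to 0.57, without PSC library 4, 12, 18, 20 or 36), Adgra2 against 1 of them in further fits, Adgre4 in PSCs against the NG2-dsRed+ sort (-2.15 without PSC library 20) and Adgrl4 between the other sorts (-2.57 and -2.09 without S100β-GFP+ library 17 or 22, against -1.71). Counts of members called with a library left out were 7 to 8 higher and 6 to 6 lower for PSCs against the S100β-GFP+ sort, 5 to 6 and 8 to 9 against the NG2-dsRed+ sort, and 7 to 8 and 6 to 7 between the other sorts. Calls gained in other fits included Adgrg1 (1.77 with limma-voom) and Adgrl1 (0.49 with the share as a term), both higher in PSCs than in the S100β-GFP+ sort. With only the compared cell types fitted, some members of low count fell to the filter and have no value. No paired analysis was possible because the labels do not name the mouse of a library. Any libraries that share a mouse were fitted as independent. Members under a few CPM, Adgrb2 among them, rest on few counts.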
